A study of Mus musculus with 85 samples.

Results

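The miR-15/16 family, to which miR-195a, miR-497a and miR-322 belong by their seed, is a group of mature miRNAs read here in the hearts of 85 female mice. Its members were chosen by name, not by their values, as the rows mmu-miR-15a-5p, mmu-miR-15b-5p, mmu-miR-16-5p, mmu-miR-195a-5p, mmu-miR-497a-5p and mmu-miR-322-5p. They are 6 of the 1977 miRNAs listed in the count table and 6 of the 548 with a count in any heart. The mice belonged to the HMDP, the hybrid mouse diversity panel of inbred strains used for genetic mapping. Every mouse was female, ate chow for its first 8 weeks and a diet rich in fat and sucrose (HF/HS) for the next 8 weeks, and was 16 weeks old. Small RNA was counted in 1 library per heart. All hearts thus form 1 group, with no control diet, and the labels tie no library to a strain, so strain and library preparation cannot be told apart in the spread between hearts, which is all that the p-values below measure.

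A miRNA guides the Argonaute complex to messages that pair with its seed, the bases 2 to 8 from its 5′ end, and lowers their stability and translation. Members of this family share their seed and so share many targets, among them cyclins and checkpoint kinases. In the heart the family is known for its part in the withdrawal of cardiomyocytes from the cell cycle after birth, with miR-195a rising in that period, and its members are also studied in ischaemia. The genes lie in 4 clusters. Mir15a and Mir16-1 lie together, as do Mir15b and Mir16-2, and both pairs yield the same mature miR-16-5p. Mir497 and Mir195a form the third cluster, and Mir322 lies beside Mir503.

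The mature sequences are shown because the shared seed defines the family and because the differences beyond it decide how well reads of 1 member can be told from those of another. They are taken from RefSeq (GRCm38.p6), all 6 members matched by name, they are written 5′ to 3′, and capitals mark the seed.
mmu-miR-16-5p: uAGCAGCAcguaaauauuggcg
mmu-miR-195a-5p: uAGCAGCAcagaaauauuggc
mmu-miR-15a-5p: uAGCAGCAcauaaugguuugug
mmu-miR-15b-5p: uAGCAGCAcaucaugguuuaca
mmu-miR-497a-5p: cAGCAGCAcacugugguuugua
mmu-miR-322-5p: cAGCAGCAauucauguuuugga
The seed was the same in all 6. The 4 members miR-16-5p, miR-15a-5p, miR-15b-5p and miR-195a-5p also shared their first 9 bases. The closest pair by sequence was miR-16-5p and miR-195a-5p, which come from different clusters and are identical at 19 of 21 bases compared. The pair miR-15a-5p and miR-15b-5p was identical at 18 of 22 bases. By contrast miR-195a-5p and miR-497a-5p, whose genes lie 242 bases apart, were identical at 12 of 21 bases. The deposited table gives miR-16-5p 1 row, so the products of its 2 genes could not be separated, and how reads that fit several places were counted is not given in the sources used here. Another 4 listed miRNAs have the same seed (mmu-miR-195b, mmu-miR-6342, mmu-miR-6353 and mmu-miR-6419), and none had a count in any library, which allows up to 3 counts each over all 85 libraries.

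Total counts per library ranged from 1457 to 30202 with a median of 12248, a low depth at which 3 counts, the limit that a count of 0 allows, correspond to 99.3 to 2059 CPM, depending on the library (CPM are counts per 1000000 counts of the library). Expression over the other miRNAs split the libraries into 2 sets, A and B, with 58 libraries in set A and 27 in set B (library numbers 1 to 10, 15 to 18, 20, 21 and 49 to 59). The split was made on the first principal component of 49 tested miRNAs outside the family, which held 75.6% of their variance. Library 14, with the lowest total, lay between the sets and was placed in set A. The labels do not say what the sets are, so relations between miRNAs were read within each set and the pooled value is given beside them. Markers of heart muscle were high in every library, since the cardiomyocyte list (miR-208a-3p, miR-208b-3p, miR-499-5p and miR-133a-3p) summed to between 28422 and 144745 CPM. Its median was 43872 CPM in A and 77303 CPM in B. Of the other marker lists used below, the leukocyte list had medians of 19408 and 7762 CPM and the endothelial list 65670 and 58116 CPM.

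Most of the family was miR-16-5p. The 6 members held 29005 counts, a median of 2.42% of a library's counts (range 1.25% to 4.32%). Of these counts 25140, or 86.7% (95% Wilson interval 86.3% to 87.1%), were miR-16-5p, which ranked 8 among all miRNAs by counts. The other 5 members together held 3865 counts, 13.3% of the family. In order, miR-322-5p held 4.50% (4.26% to 4.74%) and ranked 55, miR-15a-5p held 3.38% (3.18% to 3.59%) and ranked 65, and miR-195a-5p held 2.52% (2.34% to 2.70%) and ranked 71. The least abundant were miR-497a-5p with 2.08% (1.92% to 2.25%, rank 79) and miR-15b-5p with 0.858% (0.759% to 0.971%, rank 113). These intervals cover counting error only.

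The dominance of miR-16-5p held in every heart. Its share of the family counts was lowest at 76.2% in library 48, had a median of 86.3%, and was highest at 92.6% in library 82. The share of miR-322-5p ran from 1.88% through a median of 4.32% to 8.51%, and that of miR-15a-5p from 1.08% through 3.30% to 7.69%. For miR-195a-5p the lowest share was 0%, the median 2.55% and the highest 5.97%. For miR-497a-5p these were 0.320%, 1.99% and 7.14%, and for miR-15b-5p 0%, 0.752% and 3.50%. The ranges of the 5 minor members overlap one another, and none reaches that of miR-16-5p.

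**Figure D1:**
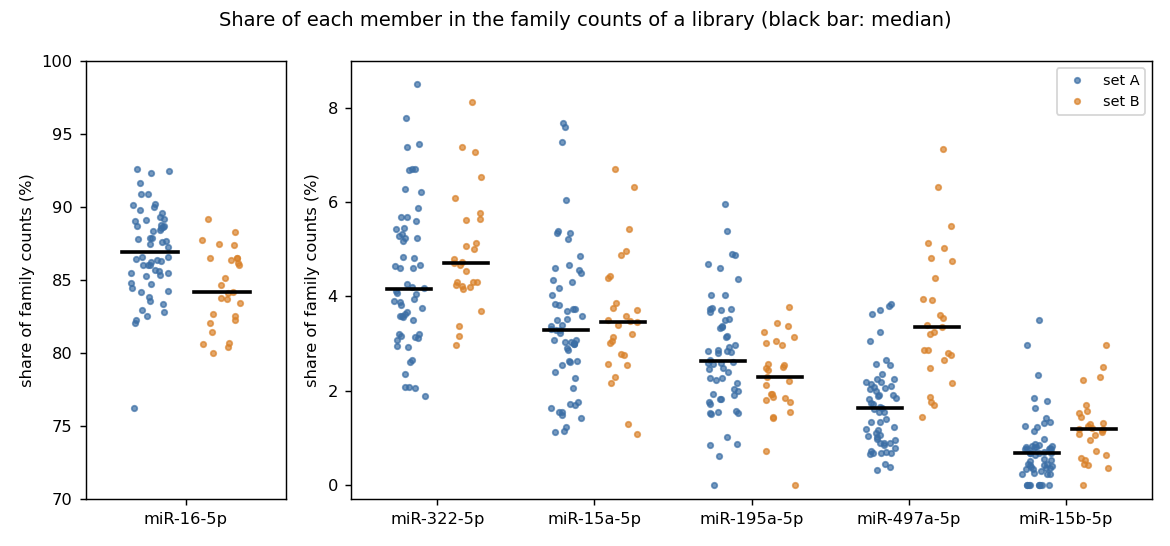
Share of each member in the summed counts of the 6 members (vertical axis, percent) in each library, for set A and set B, with black bars at the medians and a separate, truncated axis from 70% to 100% for miR-16-5p. The median of miR-16-5p was 86.9% in A and 84.2% in B, while the median of miR-497a-5p was 1.62% in A and 3.34% in B.

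As levels, miR-16-5p ranged from 9849 to 38656 CPM with a median of 20810 CPM over the 85 hearts. Its raw count was at least 47 in every library, so its level was well measured throughout. The level of miR-322-5p was between 256 and 2259 CPM (median 1164), and its raw count had a median of 15. The level of miR-15a-5p ran from 262 to 2745 CPM (median 833, raw median 11), and the 2745 CPM belongs to library 14, where it stands for 4 counts. The remaining members were sparser. The miR-195a-5p row had a median of 653 CPM and 9 raw counts and was at 0 in 2 libraries. The miR-497a-5p row had a median of 510 CPM and 6 raw counts, and was detected in all 85. The miR-15b-5p row had a median of 176 CPM and 2 raw counts, was at 0 in 10 libraries, and was at or under 3 counts in 55. Only 2 of the 6 members, miR-16-5p and miR-322-5p, passed the filter on low counts that kept 51 miRNAs, and the other 4 were too sparse for the fit across miRNAs.

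**Figure D2:**
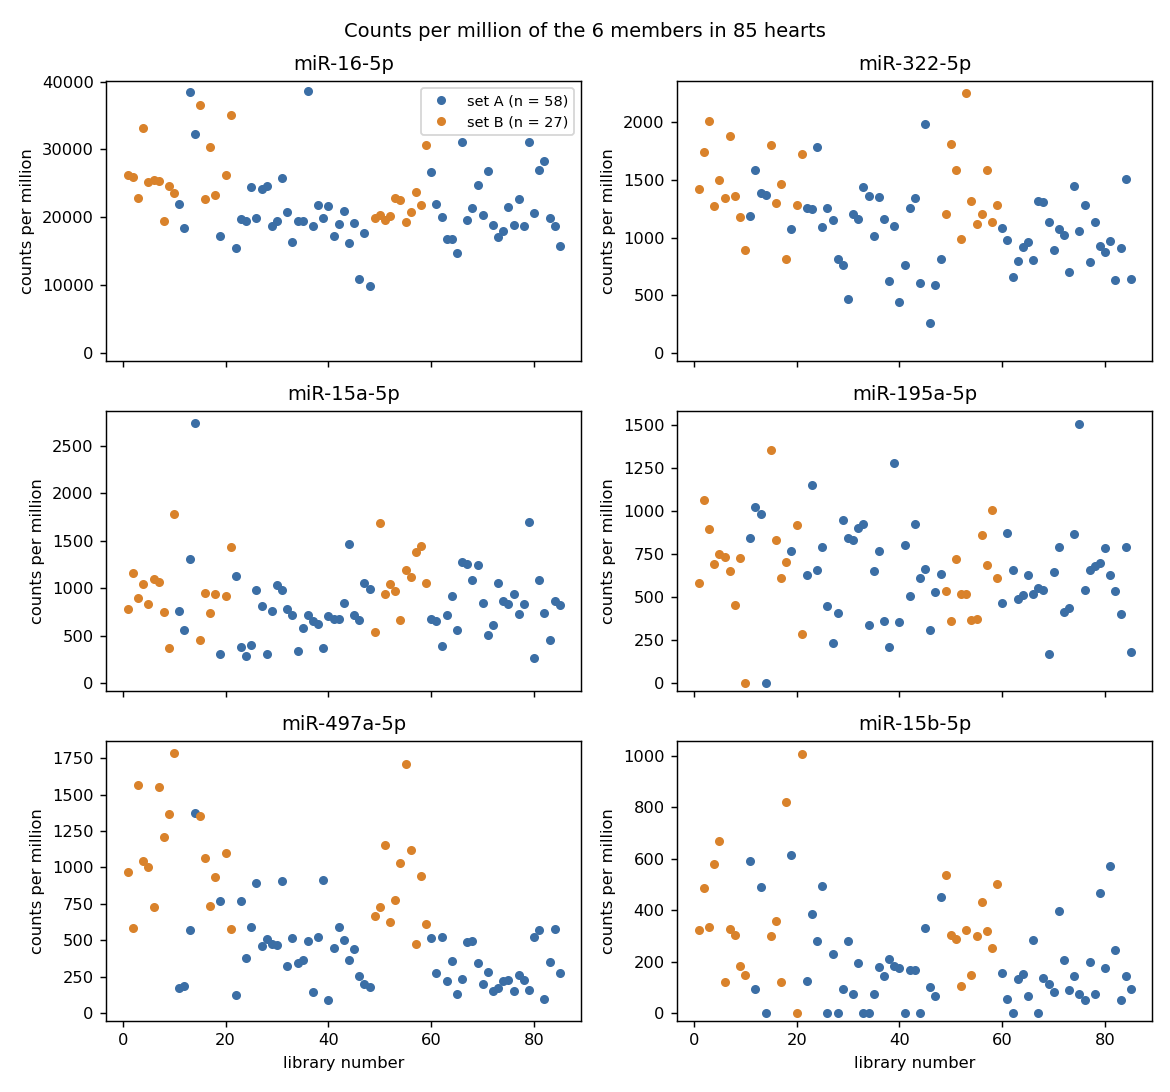
CPM of each member (vertical axes, linear, on a scale of their own in each panel) against the library number (horizontal axis), with 1 point per heart and colours for set A and set B. The points of miR-16-5p lie between 9849 and 38656 CPM in A and between 19252 and 36558 CPM in B. Those of miR-497a-5p are mostly higher in B, with a median of 1000 CPM against 361 CPM in A.

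The order of the levels was tested between neighbours within libraries, as the mean log2 ratio of CPM with a two-sided sign-flip permutation test. The neighbours and their order came from the summed counts of these same libraries. Each direction over all hearts was thus set by the values tested, and the p-values are no independent evidence for the order. The 5 ratios were adjusted together by the Benjamini-Hochberg method. Over all 85 hearts miR-16-5p exceeded miR-322-5p by 4.12 ± 0.46 (SD, n = 85) on the log2 scale, and it was higher in 85 of 85 libraries (permutation test, adjusted p = 1.7e-05). Next, miR-322-5p exceeded miR-15a-5p by 0.39 ± 0.66 and was higher in 63 libraries (permutation test, adjusted p = 1.7e-05), and miR-15a-5p exceeded miR-195a-5p by 0.36 ± 0.89 and was higher in 57 (permutation test, adjusted p = 0.00024). At the lower end miR-497a-5p exceeded miR-15b-5p by 0.94 ± 0.91 and was higher in 73 (permutation test, adjusted p = 1.7e-05). The adjusted p of 1.7e-05 comes from 1e-05, the smallest raw p these permutations can give. Only the step from miR-195a-5p to miR-497a-5p was at the limit, at 0.21 ± 0.96 with 49 libraries higher (permutation test, adjusted p = 0.048). That step turned over between the sets. It was 0.56 ± 0.84 in A and -0.54 ± 0.77 in B (permutation tests, adjusted p = 1.7e-05 and 0.0002). These ratios were taken with a prior count of 2 added to each count, which makes the steps between sparse members smaller than their count ratios. With a prior count of 0.5 the step from miR-497a-5p to miR-15b-5p was 1.36. The mature forms have 21 or 22 bases, and an effect of length was not tested. How evenly the library preparation captured each sequence was not tested.

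The clusters that yield miR-16 were read first. Mir15a lies on chromosome 14 from 61632027 to 61632110 and Mir16-1 from 61631880 to 61631972, both on the minus strand within Dleu2, a long noncoding RNA gene, and 55 bases apart (GRCm38, GENCODE M21). Mir16-1 overlaps an exon of Dleu2 on the same strand, and Mir15a is intronic. Mir15b lies on chromosome 3 from 69009772 to 69009835 and Mir16-2 from 69009902 to 69009996, on the plus strand in an intron of Smc4, which encodes a condensin subunit. One hairpin of each pair makes miR-16-5p, yet miR-16-5p outnumbered the sum of miR-15a-5p and miR-15b-5p by 20.5 to 1 (25140 against 1229 counts). The ratio of miR-15a-5p to miR-15b-5p was 4.62 in A (660 against 143 counts) and 3.02 in B (320 against 106). In single libraries miR-15a-5p had more counts than miR-15b-5p in 54 of 58 in A and 26 of 27 in B, and fewer in 2 and 0.

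The other arms of the hairpins distinguish the 2 genes of miR-16, because their sequences differ. The -3p arms are the strands usually discarded when the hairpin is processed, and 3 are shown because they carry the locus.
mmu-miR-16-1-3p: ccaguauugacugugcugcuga
mmu-miR-16-2-3p: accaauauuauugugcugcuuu
mmu-miR-15b-3p: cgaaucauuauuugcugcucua
Over all hearts miR-16-1-3p had 17 counts and miR-16-2-3p had 4, so that the chromosome 14 arm made up 80.95% of the 21 counts (95% Wilson interval 59.999% to 92.3%). Set beside 25140 counts of miR-16-5p, these arms were 0.0676% and 0.0159% of both arms. The -3p arm of Mir15b differed from the rest. It had 37 counts against 249 of miR-15b-5p, 12.9% of both arms (9.53% to 17.3%). The -3p arms of Mir195a, Mir322, Mir497 and Mir15a stood at 1.75%, 1.21%, 0.824% and 0.102%, with 13, 16, 5 and 1 counts. The interval of Mir15b lies above all of theirs, the nearest of which, that of Mir195a, ends at 2.97%. The partner arms went the other way from those of miR-16, with 1 count of miR-15a-3p (chromosome 14) and 37 of miR-15b-3p (chromosome 3). Since the share of the -3p arm differed this much between hairpins, the 21 counts do not give the part of each gene in miR-16-5p.

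In the chromosome 11 cluster the members parted between the sets. Mir497 (70234717 to 70234800) and Mir195a (70235042 to 70235135) lie on the plus strand outside any annotated host gene, and Mir497b lies opposite Mir497 on the minus strand. The row mmu-miR-497b had 3 counts over all hearts, against 602 of miR-497a-5p. In set A miR-195a-5p had 530 counts and miR-497a-5p 302, a ratio of 1.75, and miR-195a-5p was higher in 46 libraries and lower in 10. In set B the counts were 200 and 300, a ratio of 0.667, and miR-195a-5p was higher in 3 libraries and lower in 21. In CPM, miR-195a-5p stood at 636 in A and 649 in B from summed counts, while miR-497a-5p went from 362 CPM in A to 973 CPM in B. On the log2 CPM scale the mean of miR-497a-5p was 9.05 ± 0.58 (SD, n = 58) in A and 9.96 ± 0.48 (SD, n = 27) in B, a difference of 0.91 (0.73 to 1.13 with the other normalizations). In share of the family, 10 of the 27 libraries of set B lay above the highest library of set A, and 26 lay above the median of set A. For comparison the difference between the sets over the 51 tested miRNAs had a median of 0.15 and a median size of 0.79 on the same scale. The differences of miR-16-5p and miR-322-5p were -0.037 and 0.18, among the 6 smallest of the 51. Their signs depend on the normalization, since without TMM all values shift, to 0.24 and 0.42 for these members and to a median of 0.42 for the 51, and with TMM factors from all miRNAs they were -0.26 and -0.018 with a median of -0.062. The sets were drawn from the data, so these differences are described and not tested.

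**Figure D3:**
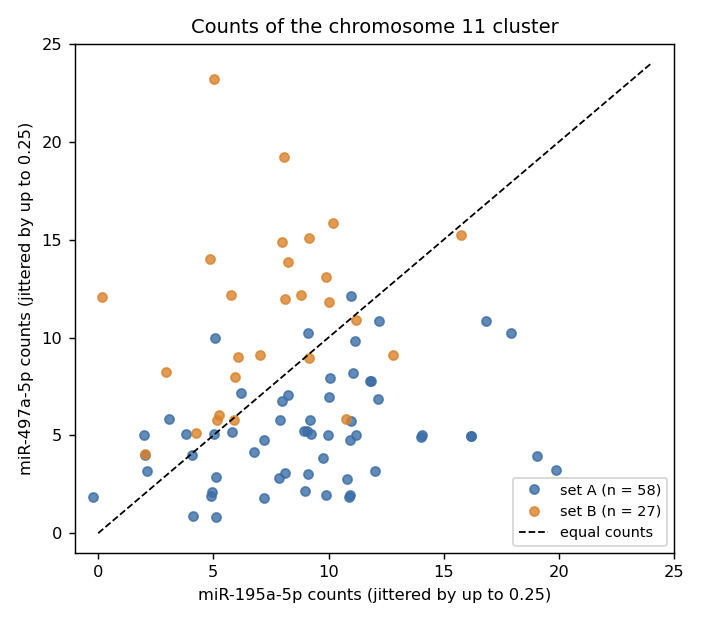
Counts of miR-497a-5p (vertical axis) against miR-195a-5p (horizontal axis) in each library, jittered by up to 0.25 counts, with a dashed line at equal counts. Of the set A points 46 lie below the line, and of the set B points 21 lie above it.

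On the X chromosome Mir322 (53054255 to 53054349, minus strand) has 6 annotated miRNA genes within 10 kb on the same strand, the nearest being Mir503 at 201 bases. Its product was by far the most counted of that group. The row miR-322-5p had 1304 counts, against 92 for miR-503-5p, 31 for miR-503-3p, 42 for miR-351-5p and 233 for miR-542-3p, and the 5p and 3p rows of Mir450-1, Mir450-2 and Mir450b had at most 21 counts each. The neighbours with most counts, miR-542-3p and miR-503-5p, had lower CPM in set B. These CPM are without TMM, a scale on which the 51 tested miRNAs had a median difference of 0.42 between the sets. From set A to set B miR-322-5p went from 1033 to 1437 CPM, a difference close to that median and whose sign depends on the normalization as given above, while miR-503-5p went from 95.9 to 38.9 CPM and miR-542-3p from 261 to 48.6 CPM. In log2 of summed CPM this was 0.48 (95% counting interval 0.31 to 0.64) for miR-322-5p, -1.30 (-2.18 to -0.43) for miR-503-5p and -2.43 (-3.18 to -1.67) for miR-542-3p. The other arm of Mir503 had higher CPM in set B, with 15 counts in A and 16 in B, or 17.99 and 51.9 CPM, and miR-351-5p went from 31.2 to 51.9 CPM. Of the Mir450 rows, miR-450b-5p had 19 counts in A and 2 in B, or 22.8 and 6.49 CPM, and miR-450a-5p had 9 and 2, or 10.8 and 6.49 CPM.

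The design next asked whether members of 1 cluster vary together from heart to heart. Pearson's r and Spearman's rho were taken over log2 CPM for the 15 pairs of members, with two-sided permutation tests of 100000 resamples adjusted over the 15 pairs of a set. None of the 15 pairs passed in A and none in B. Of the raw permutation p values, 1 was under 0.05 in A and 2 in B. The median r of the 15 pairs was 0.00 in A (from -0.30 to 0.22) and 0.04 in B (from -0.30 to 0.43).

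The 3 pairs from 1 cluster were among those that did not pass. For miR-16-5p with miR-15a-5p, r was 0.18 in A (95% interval -0.08 to 0.42, rho = 0.12, permutation p = 0.18 and 0.37) and -0.27 in B (-0.59 to 0.12, rho = -0.22, permutation p = 0.17 and 0.28). For miR-16-5p with miR-15b-5p it was 0.18 in A (-0.08 to 0.42, rho = 0.20, permutation p = 0.18 and 0.13) and 0.09 in B (-0.30 to 0.46, rho = 0.11, permutation p = 0.65 and 0.59). For miR-195a-5p with miR-497a-5p it was -0.06 in A (-0.32 to 0.20, rho = 0.13, permutation p = 0.64 and 0.33) and 0.04 in B (-0.35 to 0.41, rho = 0.23, permutation p = 0.86 and 0.25). The adjusted p of these 3 pairs lay between 0.45 and 0.92. Pooled over all 85 hearts their r was 0.08, 0.13 and -0.12. With the 2 libraries most distant from the first member's median left out, r was 0.26, 0.31 and 0.15 in A and -0.08, 0.11 and 0.18 in B. For miR-195a-5p with miR-497a-5p in A, 1 of the 2 was library 14, which had 0 and 2 counts of these members. With only library 14 left out, r of this pair in A was also 0.15. The intervals are wide, from -0.59 at the lowest to 0.46 at the highest.

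The pairs farthest from 0 joined members of different clusters. In set A this was miR-15a-5p with miR-195a-5p (r = -0.30, rho = -0.15, permutation p = 0.024 and 0.25, adjusted p of r = 0.36 by permutation), and r was -0.13 without the 2 farthest libraries, so it rested on them. With only library 14 left out, which is 1 of the 2, r was -0.12. The same pair had r = -0.30 in B (rho = -0.06, permutation p = 0.13 and 0.75) and r = -0.30 over all hearts (adjusted permutation p = 0.087). In set B miR-195a-5p had r = 0.43 with miR-322-5p (rho = 0.30) and r = 0.40 with miR-16-5p (rho = 0.41), with an adjusted permutation p of 0.28 for each. Without the 2 farthest libraries these were 0.18 and 0.27. In set A the same pairs had r of 0.17 and -0.09.

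**Figure D4:**
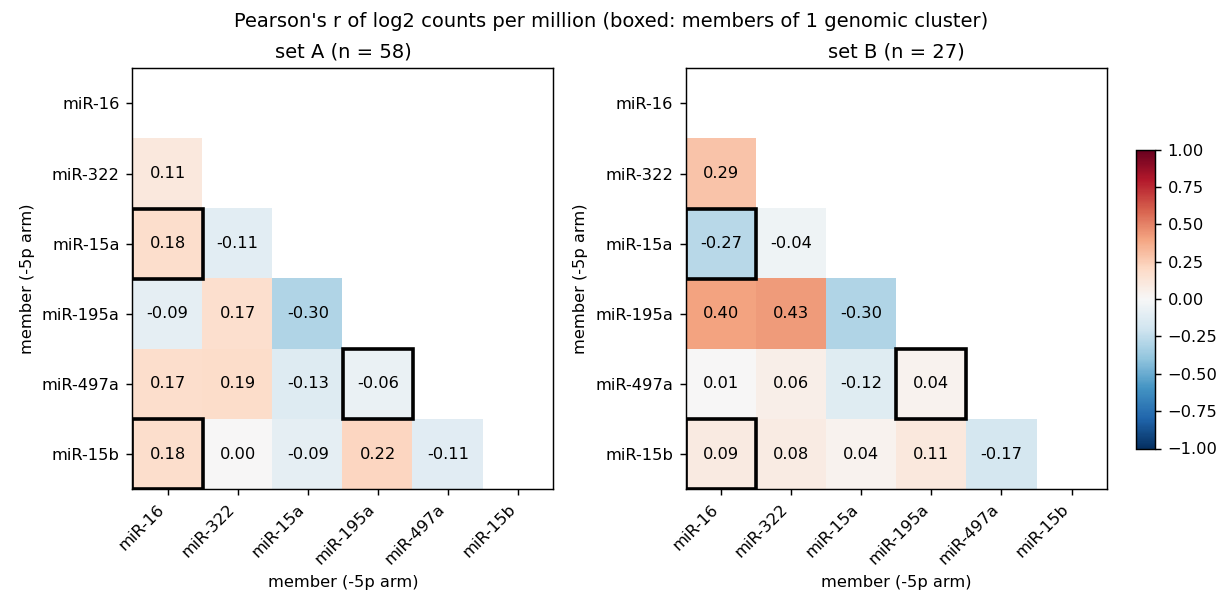
Pearson's r of log2 CPM for each of the 15 pairs of members in set A (left) and set B (right), on a colour scale from -1 to 1, with boxes around the pairs whose genes share a cluster. The boxed values are 0.18, 0.18 and -0.06 in A and -0.27, 0.09 and 0.04 in B, within the range of the unboxed ones.

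Whether a member followed its cluster partner more closely than a member of another cluster was tested directly for 5 contrasts of correlations that share a member (Steiger's z, two-sided, adjusted over the 5). None passed in either set, with the smallest adjusted p at 0.37 in A and 0.16 in B, and 1 unadjusted p of the 10 was under 0.05. In set A the correlation of miR-16-5p with miR-15a-5p exceeded that with miR-195a-5p by 0.27 (95% interval -0.16 to 0.66). In set B the same difference was -0.67 (-1.14 to -0.07, unadjusted p = 0.032, adjusted p = 0.16). The correlation of miR-195a-5p with miR-497a-5p differed from that with miR-16-5p by 0.02 (-0.31 to 0.35) in A and by -0.36 (-0.84 to 0.17) in B. The interval of a difference was up to 1.08 wide in r, so moderate differences were not detectable with these libraries.

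Counting error was large beside the spread of the 4 sparse members and of miR-322-5p. The spread of each member between the libraries of a set was compared with that of counting alone, as chi-square per degree of freedom around a constant level, where 1 is counting alone. For miR-16-5p it was 20.5 in A and 8.01 in B, which leaves a coefficient of variation beyond counting of 25.3% and 15.9%. The ratio grows with depth, so the sparse rows can vary as much beyond counting at a ratio near 1. For miR-322-5p it was 1.18 and 1.07, for miR-195a-5p 1.18 and 1.22, and for miR-15a-5p 1.64 and 1.13. For miR-497a-5p it was 1.41 and 1.73, and for miR-15b-5p 1.80 and 1.16. The coefficient of variation beyond counting was 56.99% in A and 20.2% in B for miR-15b-5p, 28.2% and 25.7% for miR-497a-5p, 23.8% and 10.3% for miR-15a-5p, 13.96% and 17.1% for miR-195a-5p, and 10.9% and 6.42% for miR-322-5p. The estimates of miR-15b-5p and miR-497a-5p were above those of miR-16-5p in both sets, with far fewer counts behind them and no test of the difference. Most of the spread of these 5 rows within a set is thus of the size that counting gives, and a weak correlation among them is no finding in either direction.

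A whole heart holds several cell types, so each member was set beside 8 lists of marker miRNAs, each summed per library. Of the 48 relations of a member with a list, 2 passed in A and 0 in B (permutation test, adjusted over 48), and 4 and 5 had an unadjusted p under 0.05. The same relations were not tested for miRNAs outside the family, so these calls cannot be read as particular to it. In set A miR-16-5p rose with the erythroid list (miR-451a, miR-144-3p, miR-144-5p and miR-486a-5p, miRNAs of red cells), at r = 0.57 (95% interval 0.36 to 0.72), rho = 0.48 (permutation p = 1e-05, the smallest possible, and 0.00014, adjusted p of r = 0.00048). All 4 markers had counts and all 4 had r above 0 with miR-16-5p in A, from 0.32 for miR-486a-5p to 0.51 for miR-451a. The summed level of the list was 1523 to 12658 CPM in A and 1647 to 10523 CPM in B. With the 2 libraries most distant from the list's median left out, r was 0.47, and leaving out 1 library at a time it stayed between 0.52 and 0.61. In set B, r was 0.04 (-0.34 to 0.41, rho = 0.05, adjusted permutation p = 0.90), and over all hearts it was 0.45. The difference between the sets was tested after it was seen (Fisher's z = 2.48, unadjusted p = 0.013). The composition of the list was itself unlike between the sets, with miR-144-3p at 416 counts in A and 14 in B. The counts of miR-451a were 2451 in A and 596 in B, and those of miR-486a-5p 726 and 596. In B the 4 markers had r with miR-16-5p from -0.17 for miR-144-5p to 0.066 for miR-486a-5p. The part of red cell RNA in the level of miR-16-5p was not tested, and in whole hearts more cells of a type and more RNA per cell cannot be told apart.

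**Figure D5:**
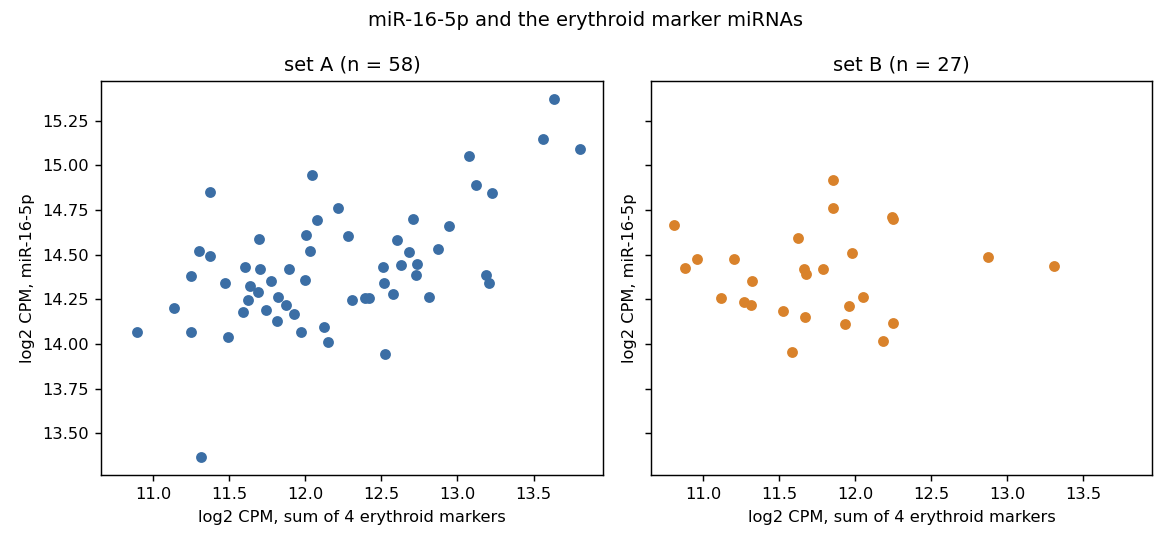
Log2 CPM of miR-16-5p (vertical axis) against log2 CPM of the sum of the 4 erythroid marker miRNAs (horizontal axis), with 1 point per heart, for set A (left, n = 58) and set B (right, n = 27) on the same axes. The points of set A rise together, with r = 0.57, and those of set B do not, with r = 0.04.

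The other relation to pass was miR-497a-5p with the fibroblast list in A (miR-199a-3p, miR-199a-5p and miR-214-3p), at r = 0.41 (0.17 to 0.60), rho = 0.36 (permutation p = 0.0012 and 0.0061, adjusted p of r = 0.029). In set B it was 0.43 (0.06 to 0.70, rho = 0.42, adjusted permutation p = 0.24). The value in B was not particular to fibroblast markers. There miR-497a-5p also had r = 0.43 with the cardiomyocyte list (-0.24 in A). Its median r with 49 miRNAs outside the family was 0.28 in B and -0.01 in A. With the fibroblast list miR-322-5p had r = 0.45 in B and 0.24 in A (adjusted permutation p = 0.24 and 0.48). The call of miR-497a-5p in A was lost under 7 of the alternatives tried, with DESeq2 size factors at r = 0.36 (adjusted permutation p = 0.098) and with library total and number held constant at r = 0.20 (adjusted permutation p = 0.62). In set A the list was mostly miR-199a-3p, with 5960 counts against 628 of miR-199a-5p and 1 of miR-214-3p, and r with miR-199a-5p alone was -0.22. Pooled over the sets, 10 relations passed, 6 of them of miR-497a-5p. A pooled r mixes the difference between the sets with the spread between hearts of a set, and miR-497a-5p and several lists differed between the sets. With the leukocyte list miR-497a-5p had r = -0.55 pooled, but -0.09 in A and -0.03 in B. With the fibroblast list it had 0.63 pooled, against 0.41 and 0.43. With endothelial markers (miR-126a-3p and miR-126a-5p), miR-322-5p had r = 0.48 in B (0.13 to 0.73, rho = 0.49, adjusted permutation p = 0.24) and 0.01 in A. The 6 lists other than the erythroid and fibroblast ones (cardiomyocyte, endothelial, smooth muscle, leukocyte, hepatocyte and neuron) gave 36 relations in each set, none past the threshold, with r from -0.24 to 0.29 in A and from -0.24 to 0.48 in B (smallest adjusted permutation p 0.32 and 0.24). Of their defining markers miR-124-3p was at 0 in all libraries, and the hepatocyte marker miR-122-5p had a median of 3 counts.

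For each member past the filter, the miRNAs outside the family with the highest mean of r over both sets were taken from 49 compared, as a description. For miR-16-5p these were let-7i-5p (r = 0.42 in A and 0.29 in B), miR-29a-3p (0.48 and 0.18) and miR-30d-5p (0.28 and 0.36). For miR-322-5p they were miR-30c-5p (0.22 and 0.63), miR-199a-3p (0.23 and 0.52) and miR-199b-3p (0.22 and 0.51), the last pair of which can share reads because their mature sequences are the same. The median r of miR-16-5p with all 49 was -0.01 in A and -0.02 in B, and that of miR-322-5p was 0.00 and 0.07. The points of each r share their library, its depth and its normalization. Between miR-16-5p and miR-322-5p r was 0.11 in A and 0.29 in B, where the 1275 pairs of tested miRNAs had quartiles of -0.20 and 0.17 in A and of -0.25 and 0.38 in B.

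The labels give each heart a library number and an animal number that rises in the same order, so a trend cannot be assigned to either alone. A trend with the library number was fitted across all 51 tested miRNAs with the set as a covariate. It was called for 34 of them, or 66.7%, of which 15 rose and 19 fell (edgeR quasi-likelihood test, Benjamini-Hochberg adjusted). Neither of the 2 tested members was called. The level of miR-16-5p changed by -0.0068 ± 0.015 (SE) log2 per 10 libraries (edgeR, adjusted p = 0.74), and that of miR-322-5p by -0.025 ± 0.020 (SE) (edgeR, adjusted p = 0.29). With the low-count filter removed, miR-15a-5p had the largest slope of the members at 0.076 ± 0.026 (SE), followed by miR-497a-5p at -0.074 ± 0.030 (SE), and neither passed (edgeR, adjusted p = 0.065 and 0.14).

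A list of 15 other miRNAs linked to the cardiomyocyte cell cycle gives the frame for that result. Of the 15, 8 were tested, and 3 rose, 4 fell and 1 was not called, a share of calls to be read against the 66.7% of all miRNAs tested. Among the 4 that fell, miR-199a-3p and miR-199b-3p have the same mature sequence and can share reads, so they are not separate observations. The median slope of the 8 was -0.023 log2 per 10 libraries, and that of all 51 was -0.0047. The muscle miRNA miR-1a-3p rose by 0.043 ± 0.014 (SE) (edgeR, adjusted p = 0.0082), and its cluster partner miR-133a-3p had a slope of -0.046 ± 0.015 (SE) (edgeR, adjusted p = 0.0067). The slope of miR-199a-3p, which promotes cardiomyocyte proliferation when supplied in excess, was -0.072 ± 0.011 (SE) (edgeR, adjusted p = 6.2e-08). The miRNA not called was miR-29a-3p, at -0.00097 ± 0.011 (SE) (edgeR, adjusted p = 0.93). None of the 6 rows of the miR-17-92 cluster on the list passed the filter, and the most counted of them, miR-19b-3p, had 1399 counts over all hearts.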

How the data were processed

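Small RNA of 85 hearts was prepared with the QIAseq miRNA kit. Per the submitters' processing notes and methods, the authors mapped reads with HISAT2 2.0.6 to mm10 and counted them with HTSeq 0.13.5. The deposited values are raw counts per mature miRNA. Trimming, the miRNA annotation, strand setting and use of molecular identifiers are not given in the sources used here, and reads without identifiers are not independent molecules, so intervals cover counting error only.

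All 85 count columns matched a library's title. Library totals, 1457 to 30202 counts, limit the precision. In R 4.3.3, counts were normalized by TMM and tested with edgeR 4.0.16 (glmQLFit, glmQLFTest; filterByExpr, at least 10 counts in 63 libraries, total of 15), with a threshold of 0.05. Raw CPM divide by the library total, and log2 CPM used TMM and a prior count of 2. Correlations, sign-flip tests and Steiger's z with Zou's interval were computed in Python 3.11.15 (numpy 2.4.6, scipy 1.17.1, pandas 2.3.3) and plots drawn in matplotlib 3.10.9. Steiger's test was used on 58 and 27 libraries. The trend and correlation scripts were tested on simulated data. Sets A and B came from 2-means on the first principal component, with rows of the family seed left out.

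The members, the lists and the sets were chosen with earlier results of these data known. Named miRNAs are the members, the other arms, rows of the same seed, genes opposite or within 10 kb, the 3 miRNAs most alike, and the marker and cell-cycle lists. Alternatives were DESeq2 1.42.0 size factors and Wald test, CPM without TMM, no filter, a prior count of 0.5, the 84 libraries with at least 3000 counts, sets by library number, partial correlations, pooling, and leaving out the 2 farthest libraries. Leaving out libraries for the marker relations and the test between the sets were added after seeing the data.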

Additional observations from a re-analysis of the deposited data

How the results depend on the processing

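Of 344 alternative values for 45 results, 298 stayed within the limits set for no change, which were the same direction and side of the threshold for a tested value, 1 SD for a share, and 1.5 times for a count of calls. The shares of the 6 members stayed within 1 SD under all alternatives tried, but not all of these could differ. Adding the other rows of the same seed changed no share, since those rows had 0 counts. Requiring at least 100 family counts or at least 3000 total counts left out only library 14 either way, with the same shares. The 24 alternative values of the shares, all within the limits, are part of the 298. The number of pairs and of contrasts past the threshold was 0 for both sets under each alternative. The relation of miR-16-5p with the erythroid list in set A was past the threshold under each alternative that had a test (r from 0.45 to 0.66). The 0.45 is the value pooled over both sets. Without the 2 farthest libraries r was 0.47, judged by an unadjusted permutation p of 0.00021, while the other p-values were adjusted. The step from miR-195a-5p over miR-497a-5p was 0.25 with a prior count of 0.5 (adjusted permutation p = 0.083) and -0.54 within set B. The number of marker relations past the threshold in set A was 1 with DESeq2 size factors, no filter, the prior count of 0.5 or either partial correlation. For set B it was 4 without the filter, 1 of them miR-322-5p with the endothelial list (r = 0.56, adjusted permutation p = 0.049). With sets by library number it was 1, miR-497a-5p with the fibroblast list (r = 0.58, adjusted permutation p = 0.018). Pooling all libraries gave 10, a count that also holds the difference between the sets. The trend was called for 19 miRNAs with the library total as a covariate.

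Some values that had not passed the threshold changed sign. For miR-195a-5p with miR-497a-5p r in set A was 0.15 in the 84 deeper libraries, 0.18 with sets by library number, 0.063 given total and library number and 0.15 without the 2 farthest libraries. The deeper libraries, the sets by library number and the leaving out of the 2 farthest all take library 14 out of set A. In set B r of this pair was -0.050 with DESeq2 size factors, -0.14 without TMM, -0.14 without the filter, -0.031 with the prior count of 0.5, -0.24 with sets by library number, -0.0040 given total and library number, and -0.12 pooled. For miR-16-5p with miR-15a-5p in set B it was 0.18 without the filter, 0.15 with sets by library number and 0.085 pooled (-0.27 as reported above), and with miR-15b-5p it was -0.024 with sets by library number. In set A the contrast of miR-195a with miR-497a against miR-16 was -0.069 and that of miR-322 with miR-497a against miR-16 was -0.010 without the filter. In set B the contrast of miR-16 with miR-15b against miR-195a was 0.019 without TMM (-0.31 with TMM), and that with miR-15a was 0.047 with sets by library number (-0.67). For miR-322-5p with the endothelial list r was -0.058 pooled (0.48 in set B). The slope of miR-16-5p was 0.0015 with DESeq2 size factors, 0.014 without the filter and 0.0014 by DESeq2's Wald test. The causes of these changes were not tested.

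The 4 sparse members had medians of 2 to 11 counts, so their relations were limited by depth. Hearts could not be paired with one another because they form 1 group, while the order of the levels was compared within libraries.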
